A study of Arabidopsis thaliana with 12 samples.

Results

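AT2G38950, a gene for a jumonji-type protein, and AT3G11150, of the 2-oxoglutarate-dependent oxygenase family, moved in opposite directions between the pam48 mutant of Arabidopsis thaliana and the wild type (WT). AT2G38950 was lower in pam48 and AT3G11150 was higher. These 2 genes were chosen for that contrast, each from the 1 probe of the array that is assigned to it and to no other gene, out of 3439 probes. Of these probes, 692 carried a single gene name, for 691 genes in all. Because the same samples served to choose the genes, their levels and differences between genotypes are given as a description, with no test. The family names came with the choice of the genes. The gene table used to name probes lists both loci as protein-coding, on chromosomes 2 and 3, and holds no product name against which the family names could be checked.

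The array data comprise 6 pam48 samples and 6 WT samples of total RNA, all of ecotype Columbia 0 and numbered 1 to 6 within a genotype. The labels describe pam48 as a mutant with changed photosynthesis that lacks the function of a protein they do not identify, so no transcript of a targeted gene could serve as a check of the genotypes. They give no allele, tissue, plant age, growth condition or number of plants per sample. None of 15 loci set as tissue markers had a probe named for it alone, so these loci gave no reading of the tissue. The labels do not state whether a number stands for its own plants, culture or hybridisation, and differences between samples may be technical. In bulk RNA of this kind, fewer cells of a type and less transcript per cell cannot be told apart.

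Proteins with a jumonji C (JmjC) domain and the plant 2-oxoglutarate-dependent oxygenases belong to 1 large enzyme superfamily. Both use ferrous iron, molecular oxygen and 2-oxoglutarate, an intermediate of the citric acid cycle, and release succinate and carbon dioxide. Many JmjC proteins remove methyl groups from lysines of histone tails, by which they alter the transcription of genes packed around those histones. The plant oxygenases of small molecules act mainly in metabolism, where different members make or inactivate gibberellins, hydroxylate jasmonate and auxin or modify flavonoids. The labels and the gene table name no substrate for the protein of AT2G38950 or AT3G11150.

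On the deposited scale, each sample's brightest spots stand at 100 and some spots are listed at 0. The sources do not say what a 0 stands for. It is taken here as a signal too low to measure, and each bound given below rests on that reading. The median probe ran from 0.233 to 0.305 in pam48 and from 0.0913 to 0.192 in WT, and between 143 and 295 probes per pam48 sample and between 279 and 385 per WT sample were listed at 0. No background spots could be identified. The level called the floor here is each sample's 5th percentile of values above 0, and any lower value was raised to it. Samples with consecutive numbers (1 and 2, 3 and 4, 5 and 6) were most alike in all 12 cases and are named beside the results they touch.

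AT2G38950 was listed at 0 in pam48 samples 1 to 5 and at 0.000453 in pam48 sample 6. In WT it read 0.105, 0.115, 0.102, 0.110, 0.0568 and 0.105 in samples 1 to 6. Every WT sample was therefore above every pam48 sample before any normalisation, and 5 of the 6 WT values lay close together. In pam48 sample 6 the reading was 0.0121 of that sample's floor, so in all 6 pam48 samples the probe lay at or under it. No fold against a group listed almost wholly at 0 can be formed from these readings.

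**Figure D1:**
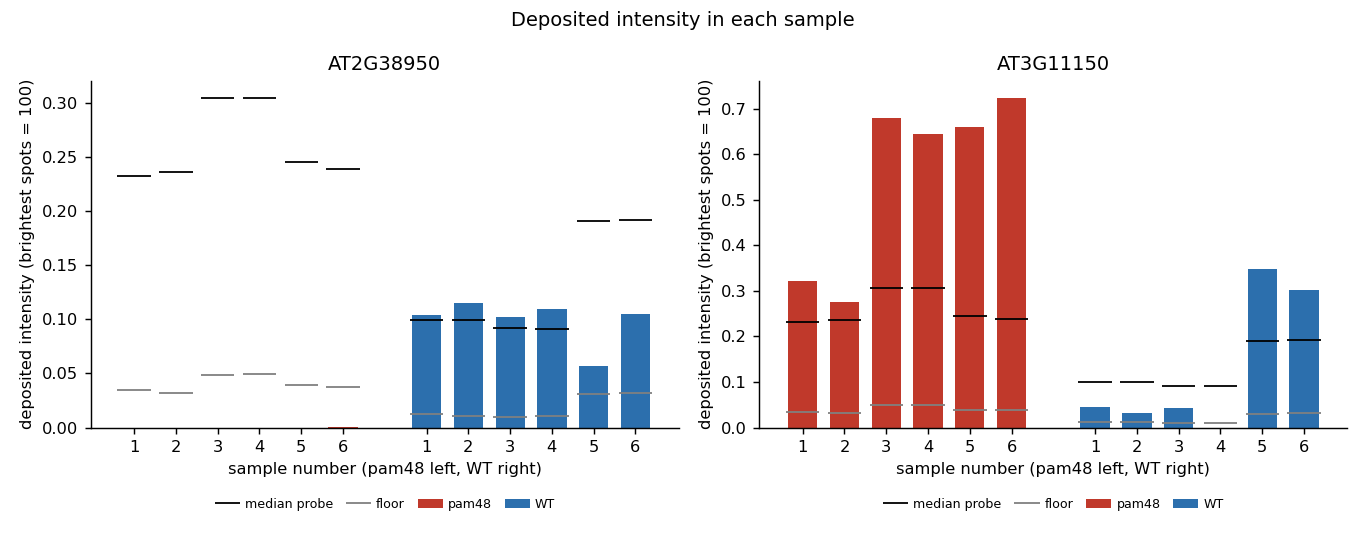
Deposited intensity (vertical axis, linear, brightest spots of a sample = 100) of AT2G38950 (left) and AT3G11150 (right) in each of the 6 pam48 and 6 WT samples, as bars. Black lines are the median probe of the sample and grey lines its floor. AT2G38950 has no visible bar in pam48 and reaches 0.0568 to 0.115 in WT, while AT3G11150 is tallest in pam48 samples 3 to 6 and low in WT samples 1 to 4.

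The AT2G38950 signal in WT was modest. It stood at 1.05, 1.15, 1.11 and 1.20 times the sample median in WT samples 1 to 4, where 51.1% to 54.5% of probes were dimmer. In WT samples 5 and 6 it stood at 0.298 and 0.546 times the median, with 18.7% and 30.4% of probes dimmer. WT samples 5 and 6 had medians of 0.191 and 0.192, against at most 0.0999 in WT samples 1 to 4. In WT sample 6, therefore, a deposited value like that of WT sample 1 meant a lower rank, whereas in WT sample 5 the deposited value itself was lower.

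Measured from its own floor, the WT signal of AT2G38950 was 8.54, 10.4, 10.2 and 10.4 times the floor in samples 1 to 4. It was 1.86 and 3.28 times the floor in WT samples 5 and 6. The gene was thus clear of the low end of the scale in WT samples 1 to 4 and near it in WT sample 5.

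Intensities were then quantile normalised and put on the log2 scale, with the floor kept per sample. AT2G38950 averaged -5.49 ± 0.55 in pam48, where every value is the floor, and -2.71 ± 0.78 in WT (log2 level, SD, n = 6 each). The spread of the pam48 mean is that of the floors and not of the gene. The difference, -2.78 (log2), is a bound that holds for this scaling and floor only: on them AT2G38950 was at least 6.84-fold lower in pam48. The genotypes did not overlap, with the highest pam48 value at -4.82 and the lowest WT value at -4.08. Of all 3439 probes, 6.57% were without overlap in this way, 4.07% lower and 2.5% higher in pam48.

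Part of this bound lies in the floors themselves. The mean floor was -5.49 ± 0.55 in pam48 and -4.67 ± 0.20 in WT (log2, SD, n = 6 each), so a probe at the floor throughout gets a difference of -0.82. Such a reading, at the floor in every sample, was had by 42 probes. Counted from each sample's own floor, AT2G38950 was at 0 in pam48 and 1.96 ± 0.65 above it in WT (log2, SD, n = 6 each), which lowers the bound to at least 3.88-fold. In single samples the WT distance above the floor was 2.45, 2.43, 2.18, 2.28, 0.77 and 1.64. With 1 common floor for all samples the bound was at least 3.29-fold, and without normalisation at least 2.42-fold.

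**Figure D2:**
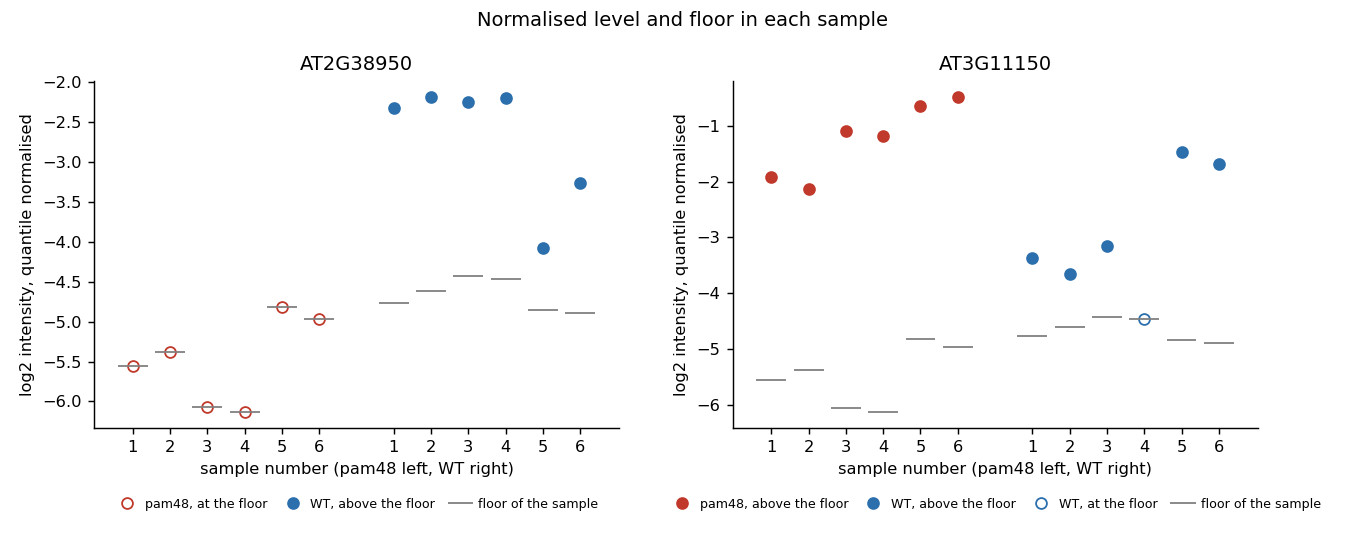
Quantile normalised log2 intensity of AT2G38950 (left) and AT3G11150 (right) in each sample, with filled points above the floor, open points at it and a grey line for the floor of each sample. All 6 pam48 points of AT2G38950 are at the floor, which is lowest in pam48 samples 3 and 4, and the WT points lie between -4.08 and -2.18. AT3G11150 lies above the floor in all pam48 samples and at it in WT sample 4.

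The pattern of AT2G38950, at the floor throughout pam48 and above it throughout WT, was shared by 2 probes of 3439 (0.0582%). AT2G38950 was the brighter of them in WT and the one with a single gene name. The opposite pattern, at the floor throughout WT and above it throughout pam48, was seen for 3 probes, none of them with a single gene name. These counts come from the contrast by which the gene was chosen and describe how rare such a reading was on this array.

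AT3G11150 read 0.322, 0.275, 0.680, 0.645, 0.660 and 0.724 in pam48 samples 1 to 6 on the deposited scale. In WT it read 0.0441, 0.0329, 0.0429, 0, 0.348 and 0.302. All 6 pam48 readings lay well above the floor, and within every number the pam48 reading was the higher. The genotypes overlapped, since WT samples 5 and 6 read within the range of pam48 samples 1 and 2 or just above it. The deposited mean was 0.551 ± 0.198 in pam48 and 0.128 ± 0.154 in WT (SD, n = 6 each), a ratio of 4.29.

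Against the rest of its sample, AT3G11150 was a moderately bright probe in pam48. Its reading was 1.16 to 3.03 times the sample median there, and 55.5% to 84.0% of probes were dimmer. In WT samples 1 to 3 it stood at 0.330 to 0.467 times the median, with 23.6% to 32.3% of probes dimmer, and in WT sample 4 it was listed at 0. WT samples 5 and 6 were unlike these, at 1.82 and 1.58 times the median, with 69.6% and 65.6% of probes dimmer. The distance from the floor on the deposited scale was 8.64-fold to 19.4-fold in pam48. In WT it was 2.97-fold to 4.31-fold in samples 1 to 3, and 11.4-fold and 9.47-fold in samples 5 and 6.

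**Figure D3:**
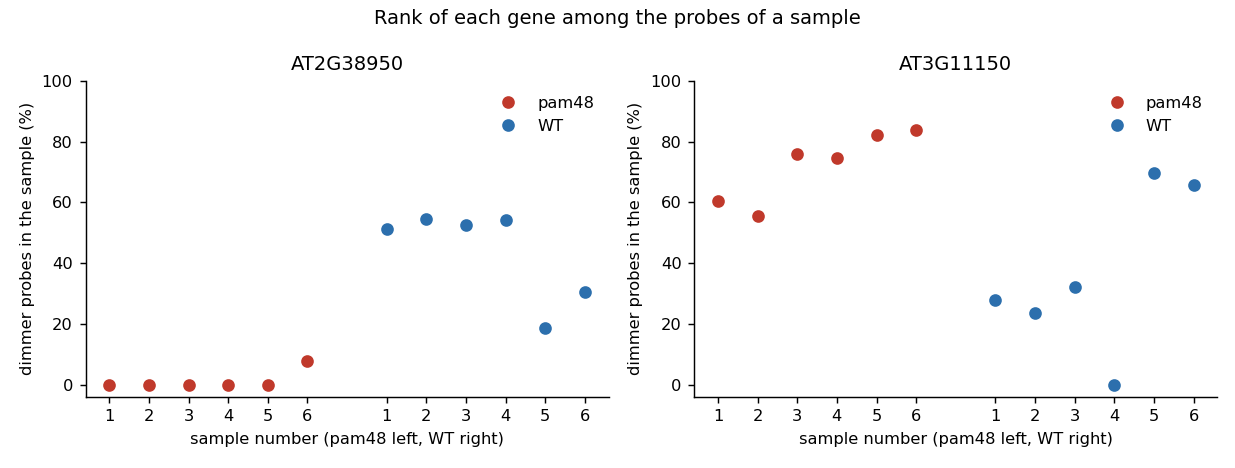
Share of a sample's probes that were dimmer than AT2G38950 (left) or AT3G11150 (right) on the deposited scale, in percent, for each pam48 and WT sample. AT2G38950 is at 0% in pam48 samples 1 to 5 and at 7.76% in sample 6, and between 18.7% and 54.5% in WT. AT3G11150 is between 55.5% and 84.0% in pam48, and in WT it is at or under 32.3% in samples 1 to 4 and at 69.6% and 65.6% in samples 5 and 6.

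After quantile normalisation AT3G11150 averaged -1.24 ± 0.67 in pam48 and -2.97 ± 1.17 in WT (log2 level, SD, n = 6 each). The difference was 1.73 ± 0.50 (log2, SE), or 3.31-fold higher in pam48. This SE, like each SD with n = 6, takes consecutive numbers as separate samples. It understates the uncertainty if they are technical repeats. The value of WT sample 4 is the floor, so that sample's part of the difference is a bound, and without it the difference was 1.42. The lowest pam48 value, -2.14 in sample 2, lay under the highest WT value, -1.47 in sample 5. Unlike AT2G38950, whose bound rests on where the floor is set, AT3G11150 was measured above the floor in 11 of 12 samples.

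In the same 12 samples the median probe differed by -0.13 (log2, pam48 minus WT). Relative to it, AT2G38950 differed by -2.64 and AT3G11150 by 1.86. Ordered by difference, AT2G38950 was the 2nd lowest of 3439 probes and the lowest of the 692 with a single gene name. AT3G11150 was the 40th highest of all probes and the 8th highest of those 692. Such ranks mix measured values with bounds. In limma's test across all probes, with each of the 12 columns as a sample, 580 probes passed at an adjusted p under 0.05. They were 16.9% of all probes, 4.91% as higher and 12% as lower in pam48, and the 411 lower ones include all 42 at the floor in every sample, which have no measured difference. The count rests on taking consecutive numbers as separate samples: limma called 0 probes with them averaged (386 at an unadjusted p under 0.05) and 8 with them as a random block. Its balance rests on the scaling, since 29.1% of calls were higher in pam48 here, 95.3% on the values as deposited and 96.1% from each sample's own floor. Both genes were among the 580, from which nothing is read, since they were selected from this contrast.

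**Figure D4:**
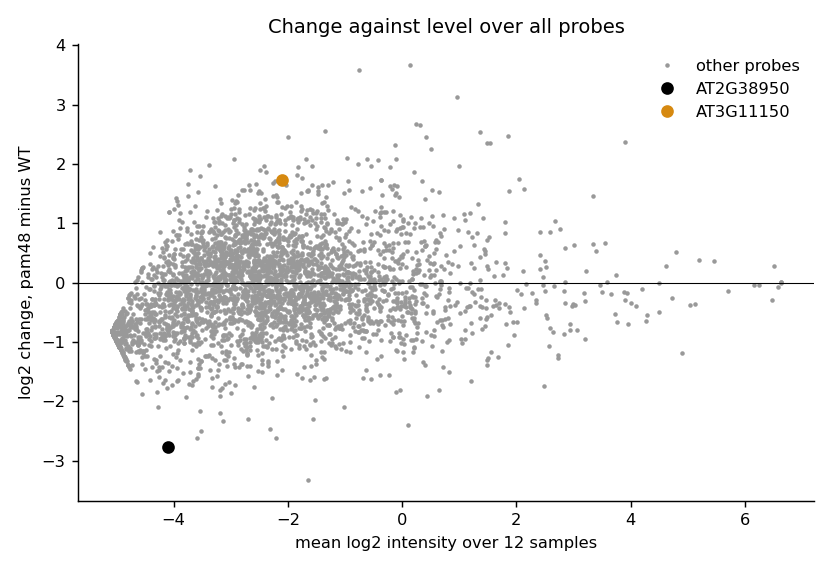
Difference between pam48 and WT (log2, vertical axis) against the mean log2 intensity over 12 samples (horizontal axis) for all 3439 probes, with AT2G38950 in black and AT3G11150 in orange. The fan of points at the left edge holds probes at or near the floor, around the difference of -0.82 that the floors alone give. AT2G38950 lies below it at -2.78 and AT3G11150 lies at 1.73, to the right of it.

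Within each couple of consecutive numbers the genes kept opposite directions, by different amounts. In numbers 1 and 2, AT2G38950 averaged -5.47 in pam48, the floor, and -2.25 in WT, and AT3G11150 averaged -2.03 in pam48 and -3.52 in WT (log2 level). The corresponding differences were a bound of -3.22 for AT2G38950 and 1.49 for AT3G11150. In numbers 3 and 4 they were a bound of -3.88 for AT2G38950, where the pam48 floors were lowest, and 2.67 for AT3G11150, where WT sample 4 was at its floor.

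In numbers 5 and 6 both values were nearest to 0. AT2G38950 averaged -4.89 in pam48, the floor, and -3.67 in WT, a bound of at least 2.34-fold lower. AT3G11150 averaged -0.56 in pam48 and -1.58 in WT, which is 2.02-fold higher. Columns of a couple lay close together for AT3G11150 in pam48, with gaps of 0.22, 0.09 and 0.16 (log2). The gaps in WT were 0.27, 1.32 and 0.21, the widest being that between WT sample 3 and WT sample 4 at the floor. For AT2G38950 in WT the gaps were 0.14, 0.06 and 0.82, so its least certain WT level was that of numbers 5 and 6.

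By single number, pam48 minus WT gave bounds of -3.24, -3.20, -3.82, -3.94, -0.74 and -1.71 (log2) for AT2G38950 in numbers 1 to 6. For AT3G11150 it gave 1.47, 1.52, 2.06, 3.29, 0.83 and 1.20, of which that of number 4 is a bound, taken against WT sample 4 at its floor. AT2G38950 was lower in pam48 in 6 of 6 numbers and AT3G11150 higher in 6 of 6. The size of the AT2G38950 bounds in numbers 1 to 4 follows the pam48 floors, since the WT levels there were nearly equal, so no order of those numbers is read from them.

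The WT samples themselves differed along the couples. AT2G38950 averaged -3.67 in WT samples 5 and 6 and -2.24 in WT samples 1 to 4, a difference of -1.43 (log2), and 7.18% of probes had a lower one. AT3G11150 averaged -1.58 in WT samples 5 and 6 and -3.67 in WT samples 1 to 4, a difference of 2.09, and 96.6% of probes had a lower one. For both genes WT samples 5 and 6 were thus nearer to pam48 than the other WT samples were. In pam48, AT3G11150 averaged -0.56 in samples 5 and 6 and -1.58 in samples 1 to 4, a difference of 1.02, with 82.5% of probes lower. AT2G38950 has no measured level in pam48 to compare. What sets numbers 5 and 6 apart is not given in the labels, and its part in the genotype difference was not tested.

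The size of each difference depended on the scaling, while its sign did not in any setting tried. Without normalisation, when the middle probe of the array differed by 1.06 (log2, pam48 minus WT), AT2G38950 gave a bound of -1.28 and AT3G11150 a difference of 3.01. Relative to that middle probe they gave -2.33 and 1.95. The difference between the 2 genes' changes, AT2G38950 minus AT3G11150, was -4.50 after quantile normalisation and -4.28 as deposited. A factor applied to a whole sample cancels in it as long as values stay above the floor. Its size still depends on the floor, because that of AT2G38950 in pam48 is set there.

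**Figure D5:**
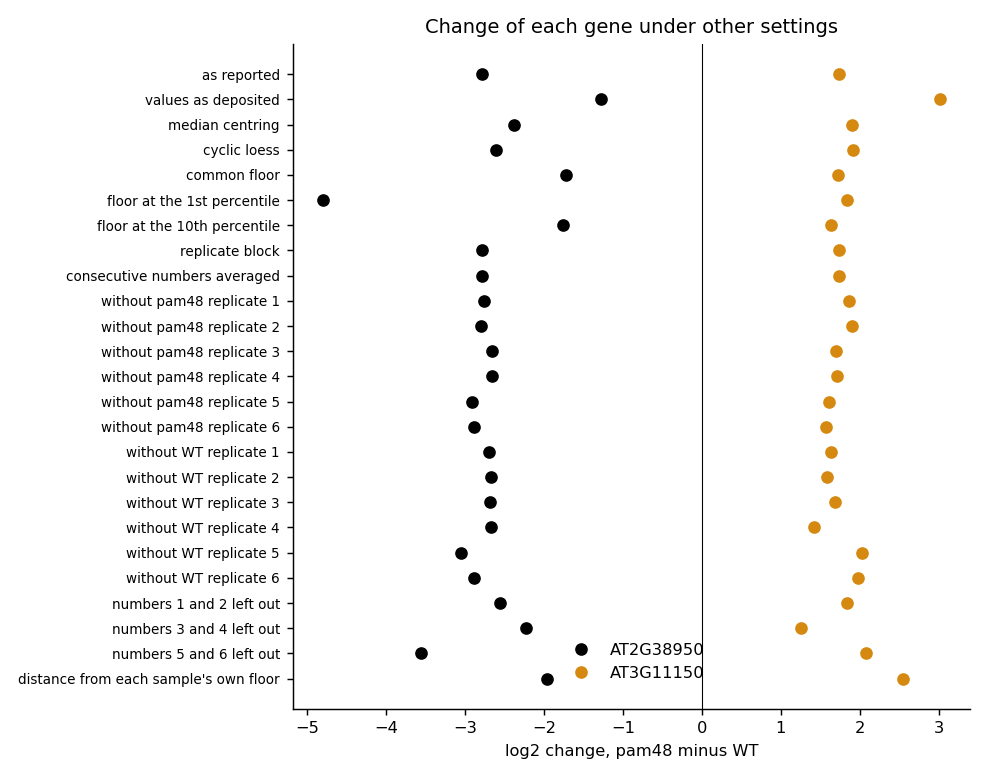
Difference between pam48 and WT (log2) for AT2G38950 in black and AT3G11150 in orange, as reported (top) and under each other setting, one per line. AT2G38950 ranges from -4.79 with the floor at the 1st percentile to -1.28 on the values as deposited, and AT3G11150 from 1.25 without numbers 3 and 4 to 3.01 on the values as deposited.

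No other gene of these families or of histone methylation was found to set beside them. The search covered 130 further loci, listed by locus number or found by words in gene symbols and synonyms. Among them were 20 of the JmjC family, the named plant oxygenases, histone methyltransferases and other histone demethylases. Enzymes that make or use 2-oxoglutarate were sought by such words only. None of the 130 had a probe with a single gene name, and 1 probe with several gene names included one of them. Relatives outside the lists whose symbols and synonyms lack such words would have been missed, since the gene table holds no product names. This search therefore does not show whether the 2 genes moved with their relatives. Related transcripts can also hybridise to a single spot on arrays of this kind, which the values cannot separate.

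Patterns over the 12 samples were compared with those of 628 other probes with a single gene name that were above the floor in at least 6 samples. For AT2G38950 the most alike were AT3G53580, the diaminopimelate epimerase of lysine synthesis (Pearson r = 0.971), and PRK, the phosphoribulokinase of the Calvin cycle (r = 0.963). AT4G31470 (r = 0.956) and AT1G21660 (r = 0.942) followed. All of them were above the floor in all 12 samples. AT3G53580 averaged -4.77 in pam48 and -2.27 in WT, and PRK -1.10 in pam48 and 1.30 in WT (log2 level). After removal of each genotype's mean, r with AT2G38950 was 0.864 for AT3G53580, 0.756 for PRK, 0.748 for AT4G31470 and 0.774 for AT1G21660, although 6 of the 12 values of AT2G38950 then follow the pam48 floors.

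For AT3G11150 the most alike were AT2G36480 (Pearson r = 0.951), AT-HF (r = 0.948), AT3G18870 (r = 0.945) and AT1G73740 (r = 0.931), all above the floor in every sample. AT2G36480 averaged 2.72 in pam48 and 0.37 in WT, and AT-HF averaged -0.08 in pam48 and -1.80 in WT (log2 level). With genotype means removed, r with AT3G11150 lay between 0.902 and 0.917 for these 4 genes. Over the 12 samples, 13 of the 628 probes had r above 0.9 with AT2G38950 and 10 with AT3G11150. The 12 points share the genotype difference and the likeness of consecutive numbers, so these r values describe this array and carry no p.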

How the data were processed

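The authors deposited 1 intensity per probe and sample for 12 samples, on a linear scale with each sample's maximum at 100. The sources used here do not give the labelling, scanner, background correction or normalisation. Groups came from the sample titles. Values were quantile normalised, values in the lowest 5% of a sample's positive ones, and zeros, were raised to that limit, and log2 was taken. The R package limma (version 3.58.1, under R 4.3.3; moderated two-sided test, Benjamini-Hochberg over 3439 probes, threshold 0.05) gave the background share of calls and the SE. It was tested on simulated data with independent samples. Those data held no likeness of consecutive numbers and no values tied at a floor, so that test does not bear on either. The number of samples limits the precision. Both genes, the lists and the tests were chosen with earlier results of these data known. Genes were named by the supplied platform annotation, updated to the TAIR10.1 gene table (690 of 692 probes matched), and by rule: both genes, related genes with a probe of their own, and the 4 most alike per gene. No genome build is named for the probe design, so no coordinates are printed. Samples of the same number deviated together (r across probes 0.188 to 0.418 in 6 of 6 numbers). The highest r of a pam48 sample with a WT sample of another number was lower in every number, but almost as high. It was 0.368 for number 1 (same number 0.418) and 0.187 for number 4 (same number 0.188). The same number thus ranked first throughout, by small margins. These margins do not settle whether samples are paired by single number, and no label explains the numbering. The limma fit as reported used no pairing. Alternatives covered scaling, floor, blocks, averaged couples and samples left out. Counting from each sample's own floor was added after seeing the data.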

Additional observations from a re-analysis of the deposited data

Results flagged for a closer look

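AT2G38950 was examined for samples far from the rest of their genotype, as was AT3G11150, in 14 groups of 6 values. The groups hold the same readings on several scales and are not independent. Of them, 3 had such a sample. In pam48, sample 6 had a deposited AT2G38950 value of 0.000453 while the other 5 were listed at 0, and its ratio to the sample median was 0.0019 against 0. That value is under the floor, so it has no order against the others. With the other 5 at 0, any reading above 0 would have been flagged. In WT, sample 5 had a deposited AT2G38950 value of 0.0568 and the next was 0.102, a gap of 0.779 of the range. After normalisation the gap of WT sample 5 was 0.432 of the range, under Dixon's 95% critical value. Chance gives about 1 in 20 for independent samples. That rate need not hold where consecutive numbers are alike or where 1 reading recurs on several scales.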

How the results depend on the processing

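Both genes kept their direction in all 24 alternatives. Of these, the replicate block and the averaged couples cannot move a difference, since each number holds 1 sample per genotype. AT2G38950 was -2.78 (log2) as reported, -1.28 on values as deposited, -1.72 with a common floor, -4.79 and -1.76 with the floor at the 1st and 10th percentile, -1.96 from each sample's own floor and -3.55 without numbers 5 and 6. All of these are bounds. AT3G11150 was 1.73 as reported and 3.01 on values as deposited. Their difference was -4.50 as reported and -6.63 with the floor at the 1st percentile. Leaving out 1 sample gave -3.05 to -2.65 for AT2G38950, 1.42 to 2.03 for AT3G11150 and -5.07 to -4.10 for the difference. With the replicate number as a block the differences are -2.78 and 1.73 by design, and 441 probes passed.

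The 580 probes that passed limma's test became 1739 on values as deposited, 305 with cyclic loess, 377 with a common floor, 871 from each sample's own floor and 369 of 3151 probes above the floor in 6 or more samples. Passing probes were higher in pam48 in 29.1% as reported, 95.3% as deposited, 40.3% with cyclic loess and 96.1% from each sample's own floor. Limma's count was 0 with consecutive numbers averaged (386 at an unadjusted p under 0.05) and 8 with them as a random block. It was 10, 11 and 1527 without numbers 1 and 2, 3 and 4, and 5 and 6. Leaving out 1 sample gave 158 to 678, 158 to 223 for each of those numbered 1 to 4. The cause was not tested. The related loci searched for had no probe named for them alone and gave no result.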
